A study of Arabidopsis thaliana with 123 samples.

Results

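The 7 genes described here encode late embryogenesis abundant (LEA) proteins of 3 small families of Arabidopsis thaliana. They were taken by identifier from a table of 37336 genes. The LEA_1 family is represented by AT1G32560 (LEA4-1), AT2G35300 (LEA4-2, also named LEA18) and AT5G06760 (LEA4-5). The PvLEA18 family is represented by AT2G23110 and AT2G23120, and the AtM family by AT2G41260 (M17) and AT2G41280 (M10).

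LEA proteins are small, very hydrophilic proteins that accumulate late in seed development, as the embryo becomes tolerant to drying. LEA_1 proteins, also called group 4 LEA proteins, are largely disordered in water, and LEA4-5 protects enzymes against drying in the test tube. The PvLEA18 family is named after a bean protein, and M10 and M17 were found as a closely related pair of transcripts of maturing seed. Transcription of many LEA genes in the seed depends on abscisic acid (ABA). It also depends on the transcription factor ABI3, which binds the RY sequence CATGCA, and on bZIP factors such as ABI5, which bind ABA response elements with the core ACGTG.

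Messenger RNA was sequenced from seeds of 10 lines and wild type Col-0, all in the accession Col-0, in 123 libraries and 43 groups. Groups had 3 libraries except 6 groups of 2. The lines were abi3-6, abi3-12, dog1-4, aba2-1, L2-1, abi3-12 dog1-4, abi3-12 aba2-1, dog1-4 aba2-1, abi3-12 dog1-4 aba2-1 and abi3-12 dog1-4 cyp707a2. The labels call L2-1 a transgenic line that adds the DOG1 allele of the accession Cvi, and call each of the others a knock-out line. DOG1 controls seed dormancy, while ABA2 makes ABA and CYP707A2 breaks it down.

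Stages are days after pollination (DAP) or dry seed, labelled 26 days and later. Batches A and B are separate rounds of the experiment, and the plants of a round were grown side by side. In batch A, abi3-6 was sampled at 16, 18, 20 and 22 DAP with 2 libraries each, and wild type from 12 DAP every second day to 24 DAP and as dry seed, with 3 libraries each (2 at 24 DAP). In batch B, abi3-6 was sampled at 24 DAP and dry, dog1-4 at 20, 22 and 24 DAP and dry, and abi3-12 (2 libraries at 18 DAP), abi3-12 dog1-4, abi3-12 dog1-4 cyp707a2 and wild type at 18, 20, 22 and 24 DAP and dry. The other 5 lines were sampled as dry seed. Lines were compared with wild type of the same stage and batch. The labels name both biological replicates and replicate extractions of a seed pool from several siliques, without saying which of these the libraries are. The libraries of a group may therefore be repeat extractions, and the SDs and p-values measure the spread between these libraries, which may be technical.

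Libraries held 2577281 to 20277489 counts (median 11678153). Levels are given as CPM, the share of a gene in all counts of its library after TMM scaling, in parts per 1e6. Transcripts of DOG1 were at 0.661 to 1.40 CPM in the 15 dry libraries that carry dog1-4, against 24.4 to 40.6 CPM in wild type. CYP707A2 was 9.30 to 10.5 CPM in the cyp707a2 line, against 58.3 to 75.9 CPM in wild type. The transcripts of ABI3 (114.8 to 242.2 CPM in lines with abi3-12, 136.1 to 156.4 CPM in abi3-6, against 192 to 206.7 CPM in wild type) and ABA2 remained in their mutants, so they do not check those labels. All 5 marker genes of seed storage and oil bodies were above 1 CPM in every group, and their sum moved with genotype and stage, as given beside the results. The 5 endosperm markers were low throughout in dry seed, with AT1G49770 and AT1G62340 at 0 in each dry group.

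LEA4-1 lies at chr1:11774484-11775442 on the plus strand (all positions in TAIR10.1) and LEA4-5 at chr5:2089445-2090430 on the minus strand, each with 2 exons. LEA4-2 is a single-exon gene at chr2:14862779-14863412 on the minus strand. AT2G23110 (chr2:9840456-9841366) and the single-exon gene AT2G23120 (chr2:9841842-9842634) are neighbours on the plus strand, 475 bases apart. M17 (chr2:17206452-17207698, 3 exons) and M10 (chr2:17209697-17210423, 2 exons) lie close to each other on the plus strand. No stretch of 50 bases of a member's transcript occurs outside its own gene. M17 holds repeats within itself: 76.8% of its stretches of 50 bases were unique, against 100% in the other members. M10 lies 4 bases from AT2G41290 on the opposite strand. AT2G23120 is overlapped by an antisense gene, AT2G23118, whose highest count in any library was 2, and the strand setting of the counting is not given in the sources used here. Another PvLEA18 gene, AT2G33690, had 0 counts in all 123 libraries.

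The 250 bases upstream of each annotated start were read from the RefSeq TAIR10.1 genome and searched on both strands for ACGTG and CATGCA. The palindrome CACGTG counts once per strand. LEA4-1 had 5 matches of ACGTG and 1 of CATGCA, LEA4-2 had 4 and 1, LEA4-5 had 4 and 0, M10 had 2 and 0, and AT2G23110 had 1 and 0. AT2G23120 and M17 had no match of either motif in this window. Of 27443 promoters of protein-coding genes, 22.9% held ACGTG, 8.43% held CATGCA and 2.22% held both. The windows of 5 members that differ in this way are shown 5′ to 3′ in the direction of the gene, with matches of either motif, on either strand, in capitals. They are LEA4-1 (chr1:11774234-11774483, plus), LEA4-2 (chr2:14863413-14863662, minus), M10 (chr2:17209447-17209696, plus), M17 (chr2:17206202-17206451, plus) and AT2G23120 (chr2:9841592-9841841, plus).
LEA4-1: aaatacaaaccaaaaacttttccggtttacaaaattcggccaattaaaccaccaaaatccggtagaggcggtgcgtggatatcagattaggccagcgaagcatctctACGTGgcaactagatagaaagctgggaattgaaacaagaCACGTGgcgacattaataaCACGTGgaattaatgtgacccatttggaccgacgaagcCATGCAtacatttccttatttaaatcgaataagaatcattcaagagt
LEA4-2: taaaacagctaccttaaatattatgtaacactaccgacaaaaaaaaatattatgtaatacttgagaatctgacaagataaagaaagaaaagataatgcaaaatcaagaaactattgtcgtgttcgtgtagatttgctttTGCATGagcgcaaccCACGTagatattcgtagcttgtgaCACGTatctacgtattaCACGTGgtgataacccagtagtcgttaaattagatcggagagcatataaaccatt
M10: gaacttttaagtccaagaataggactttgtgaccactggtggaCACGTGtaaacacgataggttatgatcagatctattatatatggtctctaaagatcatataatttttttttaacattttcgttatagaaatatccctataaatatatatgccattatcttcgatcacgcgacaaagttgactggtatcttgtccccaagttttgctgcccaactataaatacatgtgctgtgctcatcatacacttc
M17: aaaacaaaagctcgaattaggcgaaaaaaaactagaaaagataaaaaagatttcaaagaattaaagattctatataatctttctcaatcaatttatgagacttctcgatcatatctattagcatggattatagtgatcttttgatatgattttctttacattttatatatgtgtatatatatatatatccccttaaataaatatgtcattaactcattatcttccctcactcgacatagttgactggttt
AT2G23120: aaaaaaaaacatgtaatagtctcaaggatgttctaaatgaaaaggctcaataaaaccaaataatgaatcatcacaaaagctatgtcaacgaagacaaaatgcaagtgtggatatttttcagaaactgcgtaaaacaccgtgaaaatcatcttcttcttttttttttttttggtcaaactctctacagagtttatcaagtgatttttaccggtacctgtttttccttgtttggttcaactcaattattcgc

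The wild-type course asked when each transcript appears during maturation. Together the 7 genes held 0.0286% ± 0.00372 of all counts at 12 DAP, 0.421% ± 0.0511 at 18 DAP, 1.32% ± 0.0827 at 20 DAP and, as dry seed, 1.67% ± 0.175 in batch A (SD, n = 3 each). They did not appear together. LEA4-1 and AT2G23120 were already at 164 ± 14.4 and 88.5 ± 8.99 CPM at 12 DAP, LEA4-5 and LEA4-2 climbed through 16 and 18 DAP, M10 came up at 18 DAP and M17 last, at 20 DAP. In these whole-seed samples a larger share of expressing cells and more RNA per cell cannot be told apart. Marker sums of other tissues moved along this course too. The 5 green tissue genes summed to 3620 ± 54.2 CPM at 12 DAP, 9.65 ± 3.27 CPM at 18 DAP, 9.83 ± 0.875 CPM at 20 DAP and 32.1 ± 1.69 CPM in dry seed of batch A. The 5 seed coat genes summed to 434 ± 29.0 CPM at 12 DAP, then 347 ± 57.7 CPM at 18 DAP, 17.5 ± 6.67 CPM at 20 DAP and 0.547 ± 0.268 CPM when dry. The 5 genes of seed storage and oil bodies summed to 229000 ± 14700 CPM at 12 DAP, 411000 ± 10500 CPM at 18 DAP, 116000 ± 17800 CPM at 20 DAP and 49100 ± 1270 CPM when dry. Their part in the levels of the 7 genes was not tested.

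Among the LEA_1 genes of batch A, LEA4-1 was at 461 ± 61.2 CPM at 16 DAP, 1561 ± 255 CPM at 18 DAP, 1967 ± 120 CPM at 20 DAP and 2356 ± 389 CPM in dry seed (SD, n = 3 each). LEA4-5 was at 32.5 ± 6.85 CPM at 12 DAP, 550.3 ± 49.5 CPM at 16 DAP, 3022 ± 447 CPM at 18 DAP and 4487 ± 193 CPM at 20 DAP, its highest group mean of the batch. LEA4-2 started lowest of the family, at 11.3 ± 0.689 CPM at 12 DAP, and was at 59.0 ± 8.93 CPM at 16 DAP, 611 ± 145 CPM at 18 DAP and 1967 ± 122 CPM at 20 DAP. All 3 genes rose at 16 over 14 DAP and at 18 over 16 DAP. The largest of these 6 steps was that of LEA4-2 at 18 over 16 DAP, a log2 fold change of 3.38 with an SE of 0.23 (adjusted p = 1.36e-11).

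The PvLEA18 genes followed unlike courses in spite of their adjacent positions. AT2G23110 was at 1.96 ± 0.439 CPM at 12 DAP, 283 ± 23.5 CPM at 18 DAP, 587 ± 45.5 CPM at 20 DAP and 314 ± 23.7 CPM in dry seed of batch A. At 16 DAP its libraries differed widely, with 56.3, 66.5 and 3.68 CPM (429, 554 and 36 counts). AT2G23120 was at 74.7 ± 15.5 CPM at 16 DAP, 153 ± 29.7 CPM at 18 DAP, 195 ± 12.4 CPM at 20 DAP and 72.6 ± 15.5 CPM at 22 DAP. Relative to 18 DAP it was the one member that fell in dry seed, by 0.89 on the log2 scale in batch A (adjusted p = 0.00016; -0.20 and not called with library totals in place of TMM scaling). In batch B it fell by 0.56 (adjusted p = 0.00841), a call lost without replicate 2 of dry seed (-0.43) and turned to 0.03 with library totals.

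The AtM genes had the steepest onset. M10 had 15.8, 17.9 and 10.2 CPM at 16 DAP, then 784, 1020 and 738 CPM at 18 DAP, then 4017, 4183 and 4445 CPM at 20 DAP in batch A. Its step at 18 over 16 DAP was a log2 fold change of 5.86 with an SE of 0.21 (adjusted p = 6.69e-16). M17 had 2683, 1610 and 2406 CPM at 20 DAP, against 8.95, 7.85 and 15.7 CPM at 18 DAP, a log2 fold change of 7.70 with an SE of 0.32 (adjusted p = 6.8e-16). No library at 20 DAP came near those at 18 DAP. M17 was the member still rising at 22 over 20 DAP in batch A (log2 fold change 0.92, adjusted p = 0.00237).

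In batch B, where wild type was sampled from 18 DAP, M10 again came up before M17, and both genes were later than in batch A. M17 had 54.9, 4.79 and 9.44 CPM at 18 DAP, then 67.4, 253 and 445 CPM at 20 DAP, then 5330, 4071 and 5449 CPM at 22 DAP. As dry seed it had 6009, 5754 and 7035 CPM. M10 had 2220, 3294 and 4256 CPM at 20 DAP, against 141, 189 and 123 CPM at 18 DAP. M17 rose by 3.70 (SE 0.53) at 20 over 18 DAP and by 4.28 (SE 0.50) at 22 over 20 DAP on the log2 scale (adjusted p = 1.96e-08 and 1.17e-10). The 18 DAP library with 54.9 CPM (replicate 1) held 129 counts of M17 in a total of 3730809. Marker sums of wild type at 20 DAP also differed between the batches. The genes of seed storage and oil bodies summed to 392000 ± 59900 CPM in batch B, against 116000 ± 17800 CPM in batch A. The seed coat genes summed to 511 ± 23.4 CPM in batch B, against 17.5 ± 6.67 CPM in batch A. The batches were not tested against each other, and the part of these markers in the later rise was not tested.

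**Figure D1:**
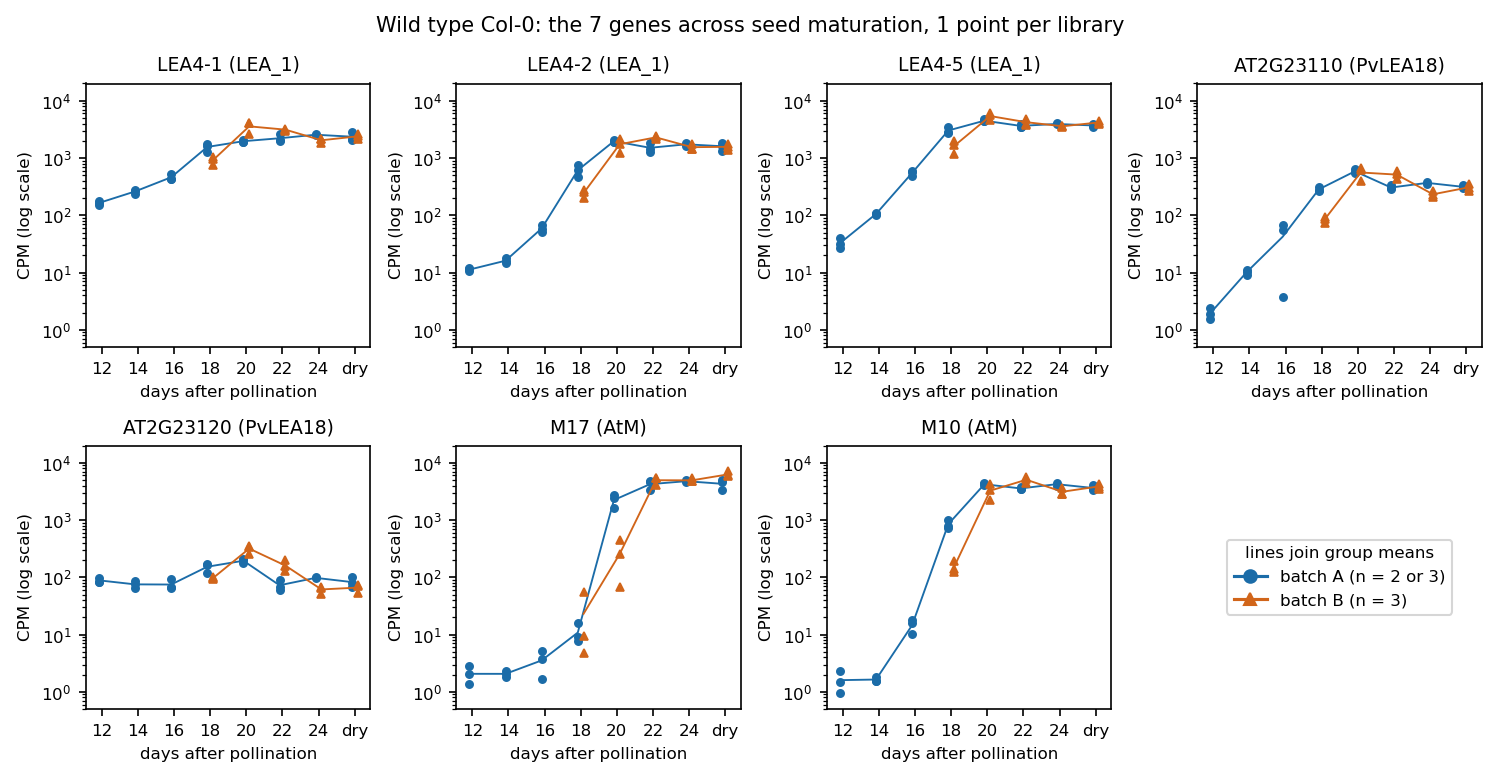
Levels of the 7 genes in wild type Col-0 by stage, in CPM on a log axis, with 1 point per library and lines through the group means of batch A and batch B. M17 and M10 start near 2 CPM at 12 DAP of batch A, M17 reaches 2233 CPM at 20 DAP, and AT2G23120 stays between 52.0 and 355 CPM throughout.

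Counted over members, 3 of 7 were called at 14 over 12 DAP (35.6% of all tested genes were called), 5 at 16 over 14 DAP (39.5%), 7 at 18 over 16 DAP (51.5%) and 5 at 20 over 18 DAP (54.3%) in batch A, all higher. The call of LEA4-1 at 14 over 12 DAP was lost with library totals (0.34). At 20 over 18 DAP the call of AT2G23110 (1.05) was lost without any 1 of the 6 libraries (0.99 to 1.11), and that of LEA4-5 (0.57) without replicate 1 or 3 of 18 DAP (0.52 and 0.50) or replicate 3 of 20 DAP (0.53), which left 3 or 4 calls. At 22 over 20 DAP M17 rose and AT2G23120 fell, in batch A (41.7%) and in batch B (43.9%). In batch B library totals ended the call of AT2G23120 (-0.37) and turned LEA4-1 and AT2G23110 to called rises (0.42 and 0.48), which brought the count to 5. All 7 rose at 20 over 18 DAP in batch B (49.3%). At 24 over 22 DAP none was called in batch A, where 0.0294% of all genes were, and 4 fell in batch B (30.6%): AT2G23120 by 1.39, AT2G23110 by 1.14, LEA4-1 by 0.62 and LEA4-2 by 0.57 on the log2 scale. The call of LEA4-2 was lost without replicate 1 or 2 of either stage (-0.56 to -0.49) and with library totals (-0.34). None was called by edgeR in dry seed over 24 DAP in batch A or B (0.0245% and 0.11% of all genes). At an unadjusted p under 0.05 these 3 comparisons without a call held 1 member at 24 over 22 DAP, 0 in dry seed of batch A and 1 in dry seed of batch B, and DESeq2 called 0 in each. In dry seed over 18 DAP, 4 members were higher and 1 lower in batch A (63.8%), and 6 were higher and 1 lower in batch B (66.6%).

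Levels of different genes were compared per kilobase of transcript. In dry wild-type seed of batch B the means were 6408 CPM per kilobase for M10, 5506 for M17, 4623 for LEA4-5, 2784 for LEA4-1, 2473 for LEA4-2, 441 for AT2G23110 and 83.3 for AT2G23120. The libraries of M10 and M17 overlapped on this scale, as did those of LEA4-1 and LEA4-2, and the other neighbours in this order did not. The PvLEA18 genes were thus the least abundant members in dry seed. Part of M17 is repeated within its own gene, and the bearing of these repeats on its counts was not tested.

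In abi3-6, 6 of the 7 genes were far lower in dry seed and AT2G23120 was higher. LEA4-1 had 2.92, 4.06 and 5.28 CPM in abi3-6, against 2580, 2178 and 2416 CPM in wild type, a log2 fold change of -9.17 with an SE of 0.24 (adjusted p = 3.74e-43). M17 had 6.72, 6.33 and 12.5 CPM in abi3-6, against 6009, 5754 and 7035 CPM in wild type, a log2 fold change of -9.50 with an SE of 0.64 (adjusted p = 1.25e-21). These were the members nearest to a complete loss, although 36 to 218 counts of each remained in every abi3-6 library.

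M10 had 115, 66.8 and 111 CPM in dry abi3-6 seed, against 4318, 3509 and 3746 CPM in wild type (log2 fold change -5.31, SE 0.42). LEA4-2 had 101, 102 and 79.5 CPM in abi3-6, against 1534, 1402 and 1768 CPM in wild type (-4.06, SE 0.23). AT2G23110 had 44.9, 41.9 and 44.1 CPM in abi3-6, against 359, 267 and 300.1 CPM in wild type (-2.82, SE 0.16). LEA4-5 fell least, with 1230, 1159 and 1298 CPM in abi3-6, against 4478, 4042 and 4003 CPM in wild type (-1.76, SE 0.17). The libraries of these 4 genes did not overlap between genotypes, and their adjusted p-values were 3.54e-15 or less. AT2G23120 had 101, 121 and 88.5 CPM in abi3-6, against 70.6, 53.7 and 73.8 CPM in wild type, a log2 fold change of 0.65 with an SE of 0.19 (adjusted p = 0.00137). Of all tested genes 77.7% were called in this comparison, 43.2% higher and 34.5% lower, so that a called member is not unusual there. The median log2 fold change was -4.06 over the members and 0.17 over all genes.

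Markers of seed storage, green tissue and seed coat moved with this line. The 5 genes of seed storage and oil bodies summed to 3230 to 6560 CPM in dry abi3-6 seed, against 53800 to 60300 CPM in wild type. The 5 green tissue genes summed to 12500 to 12900 CPM in dry abi3-6 seed, against 30.8 to 41.0 CPM in wild type, with all 5 above 1 CPM in abi3-6 and 3 of 5 in wild type. The 5 seed coat markers summed to 26.8 to 43.8 CPM in abi3-6, against 2.28 to 2.42 CPM in wild type, with 2 and 1 of them above 1 CPM. In abi3-6 the seed coat markers AT1G61720 and AT3G59030 were at 0, and in wild type AT3G59030 and AT5G63800. The part of these markers in the levels of the 7 genes was not tested.

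The earlier stages of abi3-6 in batch A showed the genes parting from wild type at different times. At 16 DAP LEA4-1 had 13.6 and 18.6 CPM in abi3-6, against 532, 429 and 422 CPM in wild type (log2 fold change -4.84, SE 0.25, adjusted p = 1.34e-14). LEA4-2 had 7.83 and 8.13 CPM in abi3-6, against 68.8, 56.7 and 51.4 CPM in wild type (-2.88, SE 0.28). These genes were already far below wild type before either AtM gene was abundant there. LEA4-5 was lower too (-0.95, SE 0.25), but was at -0.12 without a call with library totals. M17 (0.27) did not pass the test at 16 DAP, nor did M10 (-0.03; 0.81 and called with library totals), with at most 17.9 CPM in any library of either genotype. At 20 DAP M17 had 4.05 and 2.75 CPM in abi3-6, against 2683, 1610 and 2406 CPM in wild type (-9.37, SE 0.42), and M10 had 21.3 and 17.1 CPM, against 4017, 4183 and 4445 CPM (-7.78, SE 0.28).

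AT2G23120 changed direction along this course. It had 162 and 173 CPM in abi3-6 at 16 DAP, against 92.5, 64.1 and 67.7 CPM in wild type (log2 fold change 1.17, SE 0.20, adjusted p = 1.55e-05). At 20 DAP it had 61.0 and 34.8 CPM in abi3-6, against 181, 198 and 205 CPM in wild type (-2.03, SE 0.22, adjusted p = 6.94e-09). At 18 DAP it was lower (-0.72, adjusted p = 0.00286), but this call was lost without either abi3-6 library (-0.53 and -0.57), and the value turned to 0.55 with library totals. At 22 and 24 DAP it was not called (0.20 and 0.38).

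The pair of abi3-6 libraries at 20 DAP differed from each other, with 284 and 97.7 CPM of LEA4-5 and 1.22 and 7.52 CPM of AT2G23110. Of the 7 members, 1 was higher and 3 lower in abi3-6 at 16 DAP (66.5% of all genes were called), 7 lower at 18 DAP (74.5%), 7 lower at 20 DAP (79.2%) and 6 lower at 22 DAP (77.4%) and at 24 DAP (77.6%). At 18 DAP library totals ended the call of M17 (-0.36; -1.63 with TMM scaling) and turned AT2G23120 to a called rise (0.55), which left 5 lower. The difference from wild type changed with stage for all 7 in batch A (edgeR's quasi-likelihood F test, adjusted p of 1.85e-07 or less), where 75.1% of all genes did so. Between 24 DAP and dry seed in batch B it did so for none (0.00478%, which is 1 gene), with 1 member at an unadjusted p under 0.05.

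**Figure D2:**
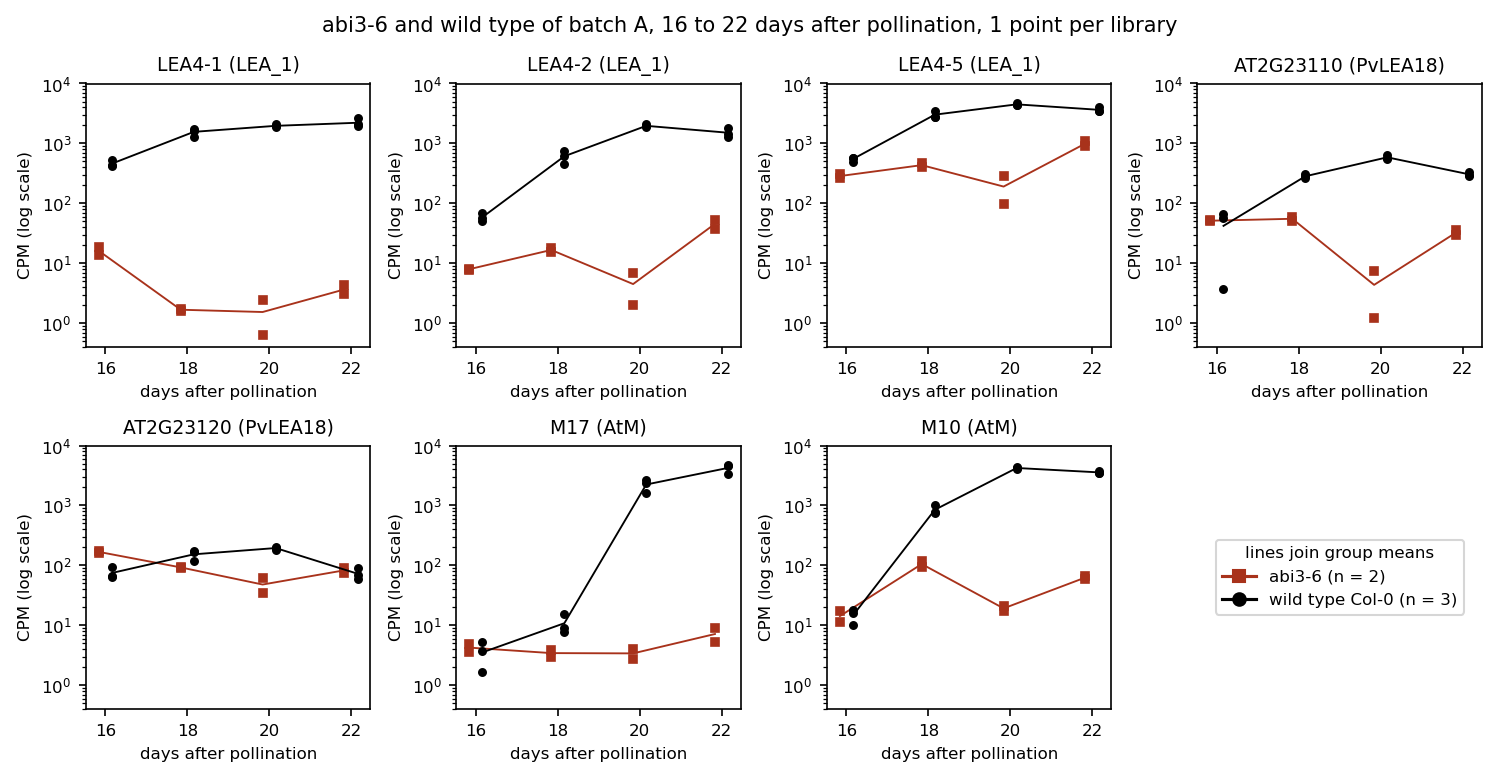
Levels of the 7 genes in abi3-6 and wild type of batch A from 16 to 22 DAP, in CPM on a log axis, with 1 point per library and lines through the group means. LEA4-1 lies at 13.6 to 18.6 CPM in abi3-6 at 16 DAP, below 422 to 532 CPM in wild type, while M17 and M10 separate between the genotypes from 18 DAP, M17 at that stage without a call under library totals (-0.36).

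The abi3-12 allele changed the same genes far less. LEA4-1 had 1311, 1120 and 1196 CPM in dry abi3-12 seed, against 2580, 2178 and 2416 CPM in wild type, a log2 fold change of -0.98 with an SE of 0.17 (adjusted p = 2.86e-06). It was the one member called in dry seed, where 30.4% of all genes were called. There DESeq2 and library totals each called 2 members, and 5 were called when these groups alone were fitted. LEA4-1 was lower at every stage sampled, by 0.62 at 18 DAP to 1.50 at 22 DAP on the log2 scale. The value at 18 DAP lost its call without replicate 1 of abi3-12 (-0.43) or replicate 2 of wild type (-0.48), and with library totals (-0.21). LEA4-2 was called lower at 20 DAP (-0.68), 22 DAP (-1.25) and 24 DAP (-0.77), and LEA4-5 at no stage (-0.17 to 0.36). At 20 DAP the call of LEA4-2 was lost without replicate 3 of abi3-12 (-0.53) or of wild type (-0.44), and with library totals (-0.21). At 22 DAP LEA4-2 had 744, 819 and 1342 CPM in abi3-12, against 2385, 2311 and 2187 CPM in wild type.

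The PvLEA18 genes were higher in abi3-12 at 18 DAP. AT2G23110 had 179 and 192 CPM in abi3-12, against 73.6, 93.8 and 85.4 CPM in wild type (1.13, SE 0.17, adjusted p = 3.12e-07). AT2G23120 had 180 and 183 CPM in abi3-12, against 95.3, 94.8 and 101 CPM in wild type (0.90, SE 0.21, adjusted p = 0.00045). No library of one genotype overlapped with the other. Both differences changed with stage (adjusted p = 0.00503 and 0.000429), as those of 23.0% of all genes did, and those of the other 5 members did not pass this test. AT2G23110 was also higher at 20 DAP (0.52) and 24 DAP (0.47), calls lost without replicate 1 of wild type at 20 DAP (0.36), and at 24 DAP without replicate 3 of abi3-12 (0.33) or replicate 2 or 3 of wild type (0.46 and 0.40). At 20 DAP AT2G23120 was called lower (-0.51, adjusted p = 0.0212). This call was lost without replicate 3 of abi3-12 (-0.41) or without replicate 2 or 3 of wild type (-0.42 and -0.38). The value was -0.04 with library totals. At 18 DAP the genes of seed storage and oil bodies summed to 189000 to 208000 CPM in abi3-12, against 487000 to 565000 CPM in wild type. Their part in the levels of the PvLEA18 genes was not tested.

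M10 was lower in abi3-12 at 18 DAP (-1.73), 20 DAP (-1.16) and 22 DAP (-0.92). These calls were lost without replicate 1 of abi3-12 at 18 DAP (-1.42), without replicate 3 of abi3-12 (-0.98) or of wild type (-0.88) at 20 DAP, and without any 1 of 5 of the 6 libraries at 22 DAP (-0.99 to -0.85). It had 35.1 and 56.4 CPM in abi3-12 at 18 DAP, against 141, 189 and 123 CPM in wild type. M17 had 1605, 903 and 3200 CPM in abi3-12 at 22 DAP, against 5330, 4071 and 5449 CPM in wild type (-1.38, SE 0.45, adjusted p = 0.0114), a call lost without replicate 1 or 2 of abi3-12 (-1.27 and -1.04). Its call at 18 DAP (-1.73) was lost without the wild-type library with 54.9 CPM (-0.19) or replicate 1 of abi3-12 (-1.28). Library totals also ended the calls of M10 at 20 and 22 DAP (-0.69 and -0.56) and of M17 at 18 and 22 DAP (-1.36 and -1.04). Across stages 5 members were called at 18 DAP (29.0% of all genes), 5 at 20 DAP (37.6%), 4 at 22 DAP (34.7%) and 3 at 24 DAP (21.3%). Leaving out a single library brought these counts to as few as 2 at 18, 20 and 22 DAP. Directly compared with abi3-12 in dry seed, abi3-6 was lower for 6 members and higher for AT2G23120 (0.78), with 75.9% of all genes called, and the same counts were found at 24 DAP (72.9%).

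In dog1-4 M17 and LEA4-5 were lower at every stage sampled. M17 had 1095, 908 and 1017 CPM in dry dog1-4 seed, against 6009, 5754 and 7035 CPM in wild type, a log2 fold change of -2.64 with an SE of 0.47 (adjusted p = 6.84e-06). It was also lower at 20 DAP (-3.27), 22 DAP (-2.50) and 24 DAP (-2.35). LEA4-5 had 2293, 2256 and 2154 CPM in dry dog1-4 seed, against 4478, 4042 and 4003 CPM in wild type (-0.90, SE 0.16, adjusted p = 1.07e-05), and was lower by 1.50, 1.40 and 0.86 at 20, 22 and 24 DAP. Neither gene's libraries overlapped between genotypes at any stage, and no call of either was lost under any alternative or left-out library. M10, the relative of M17, was at -0.33 to 0.28 over the 4 stages without a call, with an SE of 0.35 at each.

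LEA4-1 in dog1-4 was at -0.17 to -0.02 (SE 0.17), also without a call. LEA4-2 was called at 20 DAP (-0.60), a call lost without any 1 of 5 of the 6 libraries (-0.63 to -0.40) and with library totals (-0.31). AT2G23110 was called at 22 DAP (-0.49), a call lost without replicate 2 of dog1-4 (-0.48) or of wild type (-0.39), and with library totals (-0.20). The endosperm markers summed to 5.14 to 6.52 CPM in dry dog1-4 seed, against 2.87 to 3.75 CPM in wild type, with AT1G49770 and AT1G62340 at 0. Their part in the lower levels of M17 and LEA4-5 was not tested. Of the 7 members 3 were called at 20 DAP (12.5% of all genes), 3 at 22 DAP (17.8%), 2 at 24 DAP (15.2%) and 2 when dry (30.6%), all lower. By edgeR's test no member's difference from wild type changed with stage (4.95% of all genes did), with 1 member, LEA4-5, at an unadjusted p under 0.05.

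In abi3-12 dog1-4 the AtM genes, LEA4-1 and LEA4-2 were far lower in dry seed than in either single mutant. M17 had 39.4, 33.3 and 49.4 CPM in dry seed of abi3-12 dog1-4, against 6009, 5754 and 7035 CPM in wild type, a log2 fold change of -7.26 with an SE of 0.58 (adjusted p = 3.5e-18). M10 had 140, 117 and 231 CPM, against 4318, 3509 and 3746 CPM in wild type (-4.57, SE 0.41). LEA4-1 had 181, 149 and 178 CPM, against 2580, 2178 and 2416 CPM in wild type (-3.82, SE 0.19). All 3 lay far below the levels of abi3-12 and of dog1-4, and no library overlapped. Against wild type LEA4-2 was at -2.71 (SE 0.21), LEA4-5 at -1.06 (SE 0.16) and AT2G23110 at -0.91 (SE 0.15). LEA4-2 had 215 to 256 CPM in abi3-12 dog1-4, against 1062 to 1234 CPM in abi3-12 and 1565 to 1688 CPM in dog1-4. AT2G23110 had 148 to 178 CPM, against 364 to 425 CPM in abi3-12 and 231 to 302 CPM in dog1-4. AT2G23120 was not called (0.29). The call of AT2G23110 was lost with library totals (-0.28). In dry seed 6 members were called lower, where 73.9% of all genes were called and 33.1% were lower. The genes of seed storage and oil bodies summed to 4730 to 7810 CPM in dry abi3-12 dog1-4 seed, against 53800 to 60300 CPM in wild type.

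The difference from wild type widened between 20 and 22 DAP. M17 in abi3-12 dog1-4 had 49.0, 56.9 and 58.3 CPM at 20 DAP, then 17.5, 43.9 and 43.8 CPM at 22 DAP, then 82.9, 98.0 and 27.0 CPM at 24 DAP. Wild type was at 4071 to 5449 CPM at 22 DAP, against 67.4 to 445 CPM at 20 DAP, so the log2 difference was -7.14 at 22 DAP and -2.22 at 20 DAP. M10 had 132, 65.2 and 274 CPM at 22 DAP, against 699, 920 and 784 CPM at 20 DAP in abi3-12 dog1-4. LEA4-1 had 119, 147 and 125 CPM at 22 DAP, against 423, 441 and 493 CPM at 20 DAP. For both genes every library at 22 DAP lay below every library at 20 DAP. In the same libraries of abi3-12 dog1-4 the green tissue genes summed to 2440 to 3650 CPM at 22 DAP, against 344 to 506 CPM at 20 DAP. Their part in these levels was not tested.

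All 7 members were lower than in wild type at 20 DAP (58.8% of all genes were called) and at 22 DAP (75.2%), and 6 were at 24 DAP (69.4%). At 18 DAP 4 were lower and AT2G23110 was higher (41.2%), with 156, 141 and 150 CPM in abi3-12 dog1-4, against 73.6, 93.8 and 85.4 CPM in wild type (0.82, SE 0.16). With library totals the small decreases of AT2G23110 at 20 DAP (-0.40) and 24 DAP (-0.38) turned to 0.62 and 0.12. Both calls were also lost without some single library, with values of -0.35 to -0.18 at 20 DAP and -0.36 to -0.27 at 24 DAP. The calls of AT2G23120 at 20 DAP and 22 DAP were lost with library totals (-0.002 and -0.04). The call of M17 at 18 DAP (-2.31) was lost without the wild-type library with 54.9 CPM (-0.77). All 7 differences changed with stage (adjusted p of 0.000145 or less), as those of 65.4% of all genes did.

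Set against abi3-12, the double mutant was lower for 4 members at 18 DAP (12.4% of all genes called), 7 at 20 DAP (36.9%), 7 at 22 DAP (69.8%), 6 at 24 DAP (62.0%) and 6 when dry (69.2%), where AT2G23120 was higher (0.42). The calls of AT2G23120 at 18 DAP (-0.69), 20 DAP (-0.51; 0.04 with library totals), 22 DAP (-0.43; 0.035 with library totals) and in dry seed, and of M10 at 20 DAP (-0.86), were each lost without any 1 of 2 to 5 of the libraries compared. Library totals ended the calls of AT2G23120 at 18 DAP (-0.31) and of M10 (-0.31) as well.

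The dry-seed interaction of abi3-12 and dog1-4 compares the effect of dog1-4 in abi3-12 with its effect in wild type. It was negative for M10 (-4.22, SE 0.52, adjusted p = 7.21e-10), M17 (-4.07, SE 0.65, adjusted p = 5.62e-07), LEA4-1 (-2.82, SE 0.24), LEA4-2 (-2.35, SE 0.28) and AT2G23110 (-1.08, SE 0.21). It did not pass the test for LEA4-5 (-0.27, adjusted p = 0.4) or AT2G23120 (0.40, adjusted p = 0.252). These 5 of 7 members stand beside 37.3% of all tested genes. M10 was at -4.57 in the double mutant, against -0.49 in abi3-12 and 0.14 in dog1-4, neither of them called. LEA4-5 had 2013, 1916 and 2059 CPM in abi3-12 dog1-4, against 2293, 2256 and 2154 CPM in dog1-4, close to each other but without overlap.

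**Figure D3:**
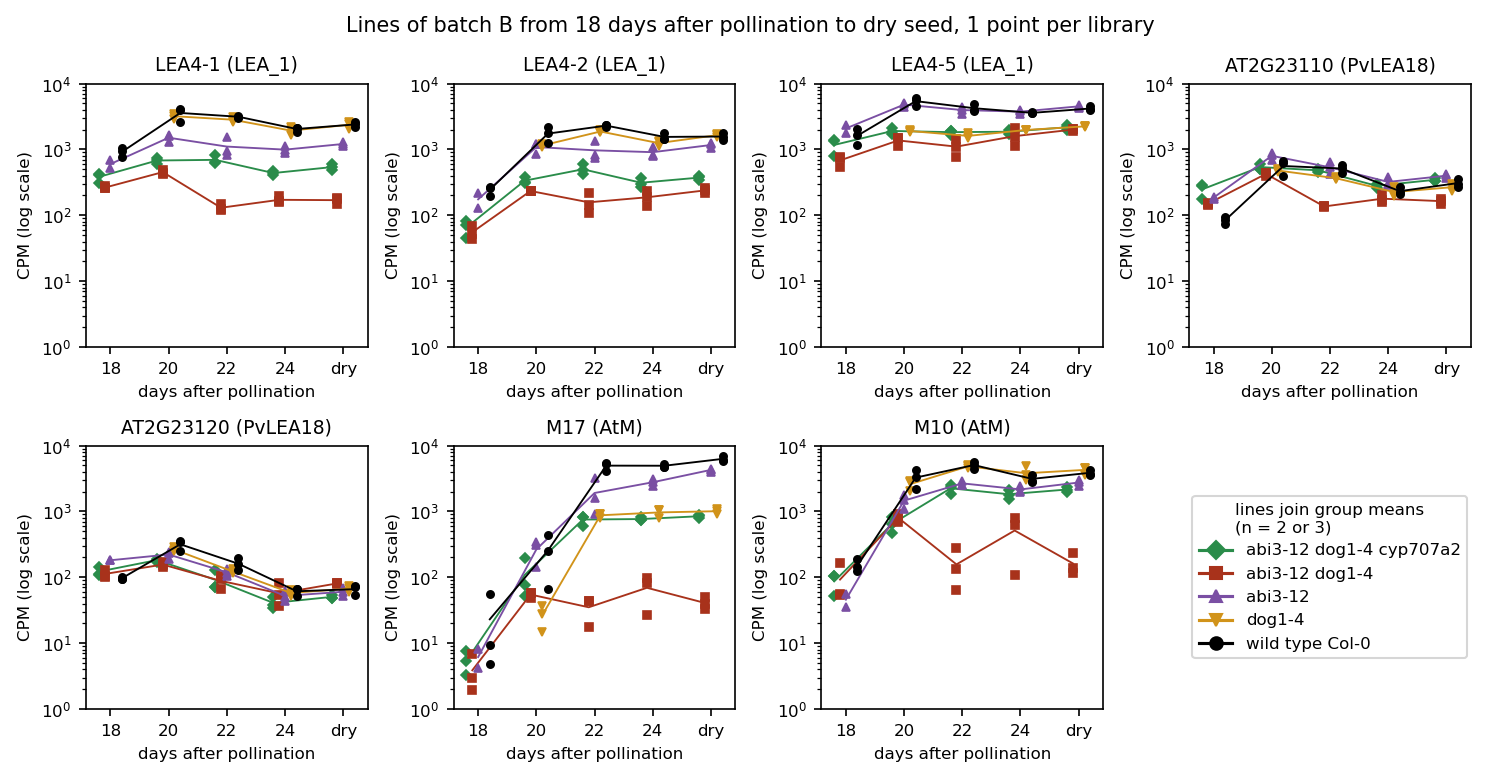
Levels of the 7 genes in 4 lines and wild type of batch B from 18 DAP to dry seed, in CPM on a log axis, with 1 point per library and lines through the group means. M17 stays at or below 98.0 CPM in abi3-12 dog1-4, while at 22 DAP it lies between 604 and 5449 CPM in the other lines and wild type.

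Adding cyp707a2 to abi3-12 dog1-4 went with higher levels of the AtM genes and LEA4-1. M17 had 893, 855 and 785 CPM in dry seed of abi3-12 dog1-4 cyp707a2, against 39.4, 33.3 and 49.4 CPM in abi3-12 dog1-4, a log2 fold change of 4.37 with an SE of 0.51 (adjusted p = 2.26e-11). M10 had 2363, 1996 and 2088 CPM, against 140, 117 and 231 CPM in abi3-12 dog1-4 (3.72, SE 0.39, adjusted p = 8.05e-13). LEA4-1 had 590.4, 544 and 479 CPM, against 181, 149 and 178 CPM in abi3-12 dog1-4 (1.67, SE 0.17). AT2G23110 (1.07, SE 0.15) and LEA4-2 (0.65, SE 0.20) were also higher, AT2G23120 was lower (-0.68, SE 0.19), and LEA4-5 was not called (0.12, SE 0.16). The call of LEA4-2 was lost with library totals (0.31). Of all genes 62.4% were called here.

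The differences of the AtM genes were first called at 22 DAP. M17 was at 0.43 at 18 DAP and 0.99 at 20 DAP without a call, and at 4.42 (SE 0.51) at 22 DAP and 3.48 (SE 0.49) at 24 DAP. At 22 DAP it had 824, 604 and 830 CPM in abi3-12 dog1-4 cyp707a2, against 17.5, 43.9 and 43.8 CPM in abi3-12 dog1-4. M10 was at -0.09 and -0.30 at 18 and 20 DAP without a call, and at 3.84 (SE 0.39) and 1.83 (SE 0.36) at 22 and 24 DAP. LEA4-1 was higher at each stage, by 0.54 at 18 DAP, 0.58 at 20 DAP, 2.41 at 22 DAP and 1.35 at 24 DAP. The calls at 18 and 20 DAP were lost without any 1 of 5 and of 4 of the 6 libraries (0.46 to 0.57 and 0.52 to 0.57), and with library totals (0.36 and 0.38). The counts were 3 higher at 18 DAP (6.46% of all genes called; 0 when these groups alone were fitted), 1 higher at 20 DAP (5.82%), 6 higher at 22 DAP (67.9%; LEA4-5 was at 0.32 without a call under library totals), and 5 higher and 1 lower at 24 DAP (53.7%) and in dry seed. AT2G23120 at 24 DAP (-0.52) was not called without replicate 3 of abi3-12 dog1-4 (-0.14) or replicate 1 or 2 of abi3-12 dog1-4 cyp707a2 (-0.41 and -0.48).

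Wild-type levels were not reached by most members in this triple mutant. In dry seed M17 (-2.89, SE 0.47), LEA4-1 (-2.15, SE 0.17), LEA4-2 (-2.07, SE 0.21) and LEA4-5 (-0.95, SE 0.16) were lower than in wild type, and AT2G23110 (0.16) and AT2G23120 (-0.39) were not called. M10 was lower by 0.84 (adjusted p = 0.0413), a call that was lost without any 1 of the 6 libraries compared (-0.92 to -0.76) and with library totals (-0.55). Thus 5 members were called lower, where 48.2% of all genes were called. At 22 DAP 6 were lower (45.1%), at 24 DAP 5 (43.9%), at 20 DAP 6 (51.7%) and at 18 DAP 4 were lower and AT2G23110 higher (33.9%). The calls of M17 were lost at 18 DAP without the wild-type library with 54.9 CPM (-0.34) or replicate 1 of the mutant (-1.61), and at 20 DAP without replicate 3 of wild type (-0.50) or replicate 1 or 2 of the mutant (-1.02 and -0.90). LEA4-5 at 18 DAP lost its call without replicate 2 or 3 of wild type (-0.23 and -0.41) or replicate 1 of the mutant (-0.26), and AT2G23120 at 24 DAP without replicate 2 of wild type (-0.47) or replicate 1 of the mutant (-0.48). With library totals LEA4-5 at 18 DAP (-0.47) turned to 0.17 and AT2G23120 at 20 DAP (-0.80) to 0.02. They also ended the calls of M17 at 18 and 20 DAP (-1.29 and -0.38), AT2G23120 at 22 and 24 DAP (-0.39 and -0.34) and M10 at 22 DAP (-0.76). The dry level of M17 in this line, 844 ± 55.1 CPM, lay near that of dog1-4, 1007 ± 93.8 CPM, and the libraries of these lines did not overlap. The difference from wild type changed with stage for 5 members (32.8% of all genes), all but LEA4-2 and M17.

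**Figure D4:**
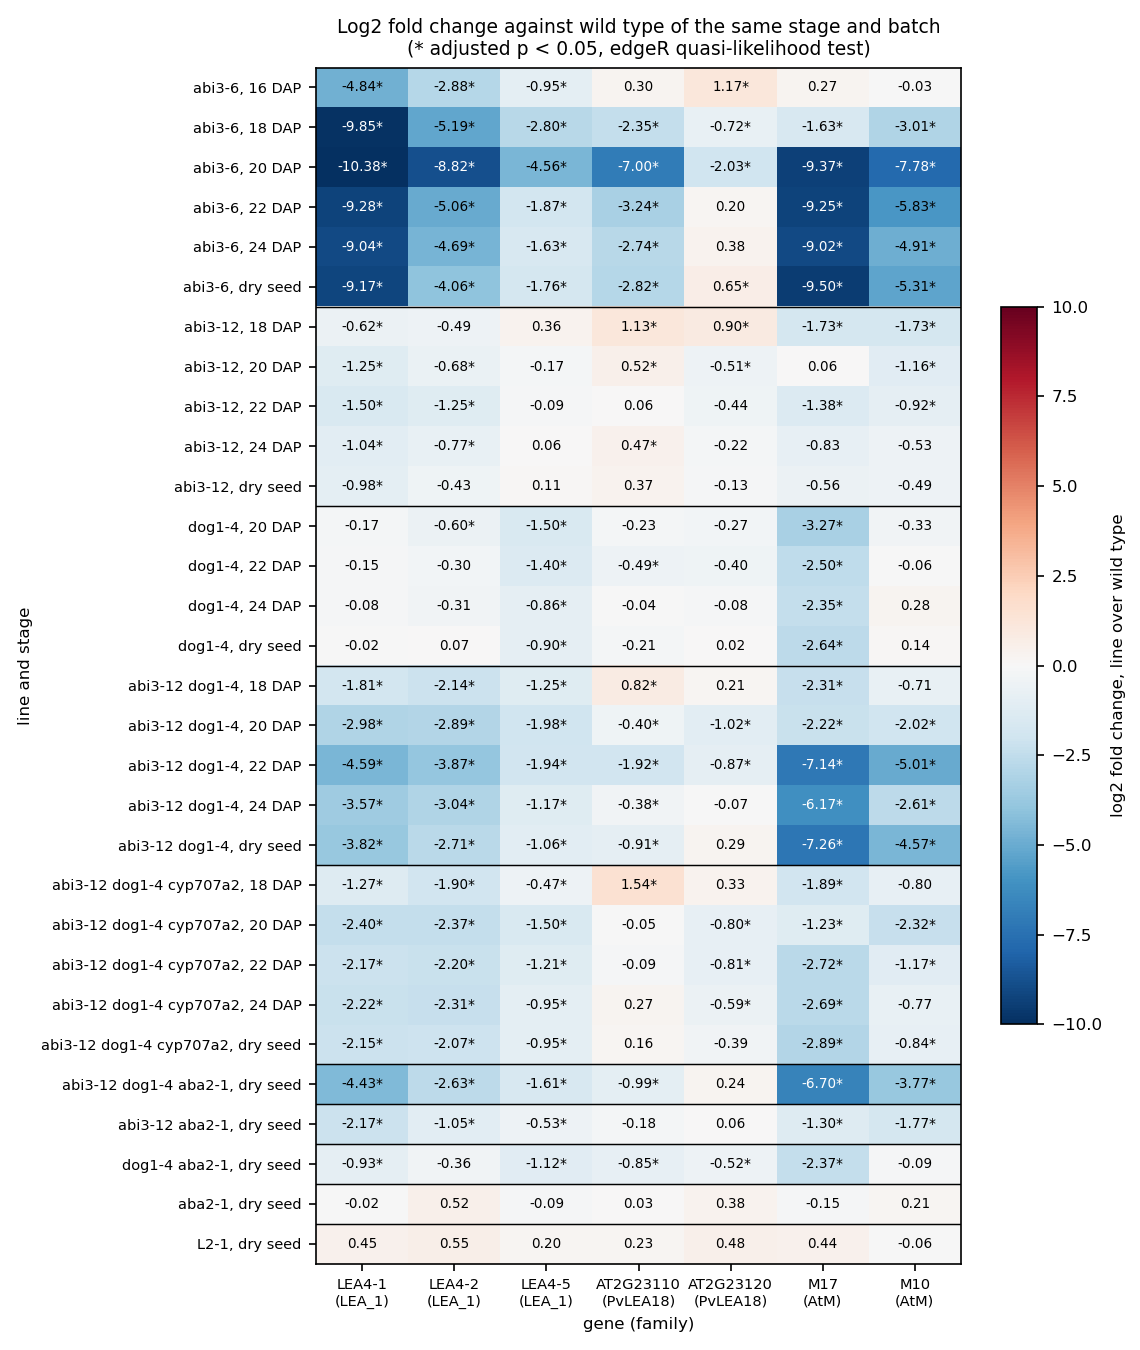
Log2 fold change of the 7 genes (columns) in each line and stage (rows) against wild type of the same stage and batch, printed in each cell, with an asterisk at an adjusted p under 0.05. Blue is lower and red is higher than wild type. M17 is called lower in dog1-4 at all 4 stages, where M10 is not called, and both AtM genes are at -4.57 or lower in dry seed of abi3-6 and abi3-12 dog1-4.

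The aba2-1 mutation alone left no member called by edgeR in dry seed (15.8% of all genes were). The nearest was LEA4-2, with 2061, 2269 and 2431 CPM in aba2-1, against 1534, 1402 and 1768 CPM in wild type (log2 fold change 0.52, adjusted p = 0.0612). At an unadjusted p under 0.05 there were 2 members, and DESeq2 called 1. L2-1 likewise left no member called by edgeR, with 1.01% of all genes called. All 3 L2-1 libraries of M17 (8847, 8699 and 8021 CPM) lay above those of wild type (6009, 5754 and 7035 CPM), with a log2 fold change of 0.44 (adjusted p = 0.853). In L2-1 3 members were at an unadjusted p under 0.05, DESeq2 called 0, and 4 were called when these groups alone were fitted.

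Lines that combine aba2-1 with other mutations were also compared with wild type. In abi3-12 aba2-1 LEA4-1 had 527, 513 and 559.7 CPM, against 2580, 2178 and 2416 CPM in wild type (-2.17, SE 0.17, adjusted p = 1.53e-17), and M10 had 1057, 1064 and 1268 CPM, against 4318, 3509 and 3746 CPM in wild type (-1.77, SE 0.36). In all 5 members were lower in this line, where 61.5% of all genes were called. The calls of LEA4-5 (-0.53) and M17 (-1.30) were lost with library totals (-0.06 and -0.83). The interaction of abi3-12 and aba2-1 was negative for LEA4-1 (-1.16), LEA4-2 (-1.15) and M10 (-1.49), where 14.2% of all genes were called. That of M10 was lost without any 1 of 7 of the 12 libraries (-1.47 to -1.42) and with library totals (-1.20).

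In dog1-4 aba2-1, 5 members were lower than in wild type (48.4% of all genes called). M17 had 1116, 1266 and 1258 CPM there, against 6009, 5754 and 7035 CPM in wild type (-2.37, SE 0.46), LEA4-5 was at -1.12, LEA4-1 at -0.93, AT2G23110 at -0.85 and AT2G23120 at -0.52. The last call was lost without replicate 1 or 3 of wild type (-0.47 and -0.43) or replicate 2 of dog1-4 aba2-1 (-0.45), and with library totals (-0.32). The endosperm markers summed to 9.25 to 10.1 CPM in dog1-4 aba2-1 and 4.46 to 5.11 CPM in aba2-1, against 2.87 to 3.75 CPM in wild type. LEA4-1 was the one member called for the interaction of dog1-4 and aba2-1 (-0.89, adjusted p = 0.0425; 1.01% of all genes), and this call was lost in 11 of 12 cases when a single library was left out. In abi3-12 dog1-4 aba2-1, 6 members were lower than in wild type (75.3%), with M17 at 54.8, 55.2 and 70.9 CPM (-6.70, SE 0.56) and LEA4-1 at 111, 108 and 113 CPM (-4.43, SE 0.19). The mean of M10 was 284 CPM in abi3-12 dog1-4 aba2-1, against 162 CPM in abi3-12 dog1-4, without overlap of the libraries. The 3-way term was positive for M10 (2.53), LEA4-2 (1.66), LEA4-1 (1.46) and AT2G23110 (1.14), where 14.8% of all genes were called. A positive term means that the combined loss was smaller than the sum of single and pairwise terms.

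**Figure D5:**
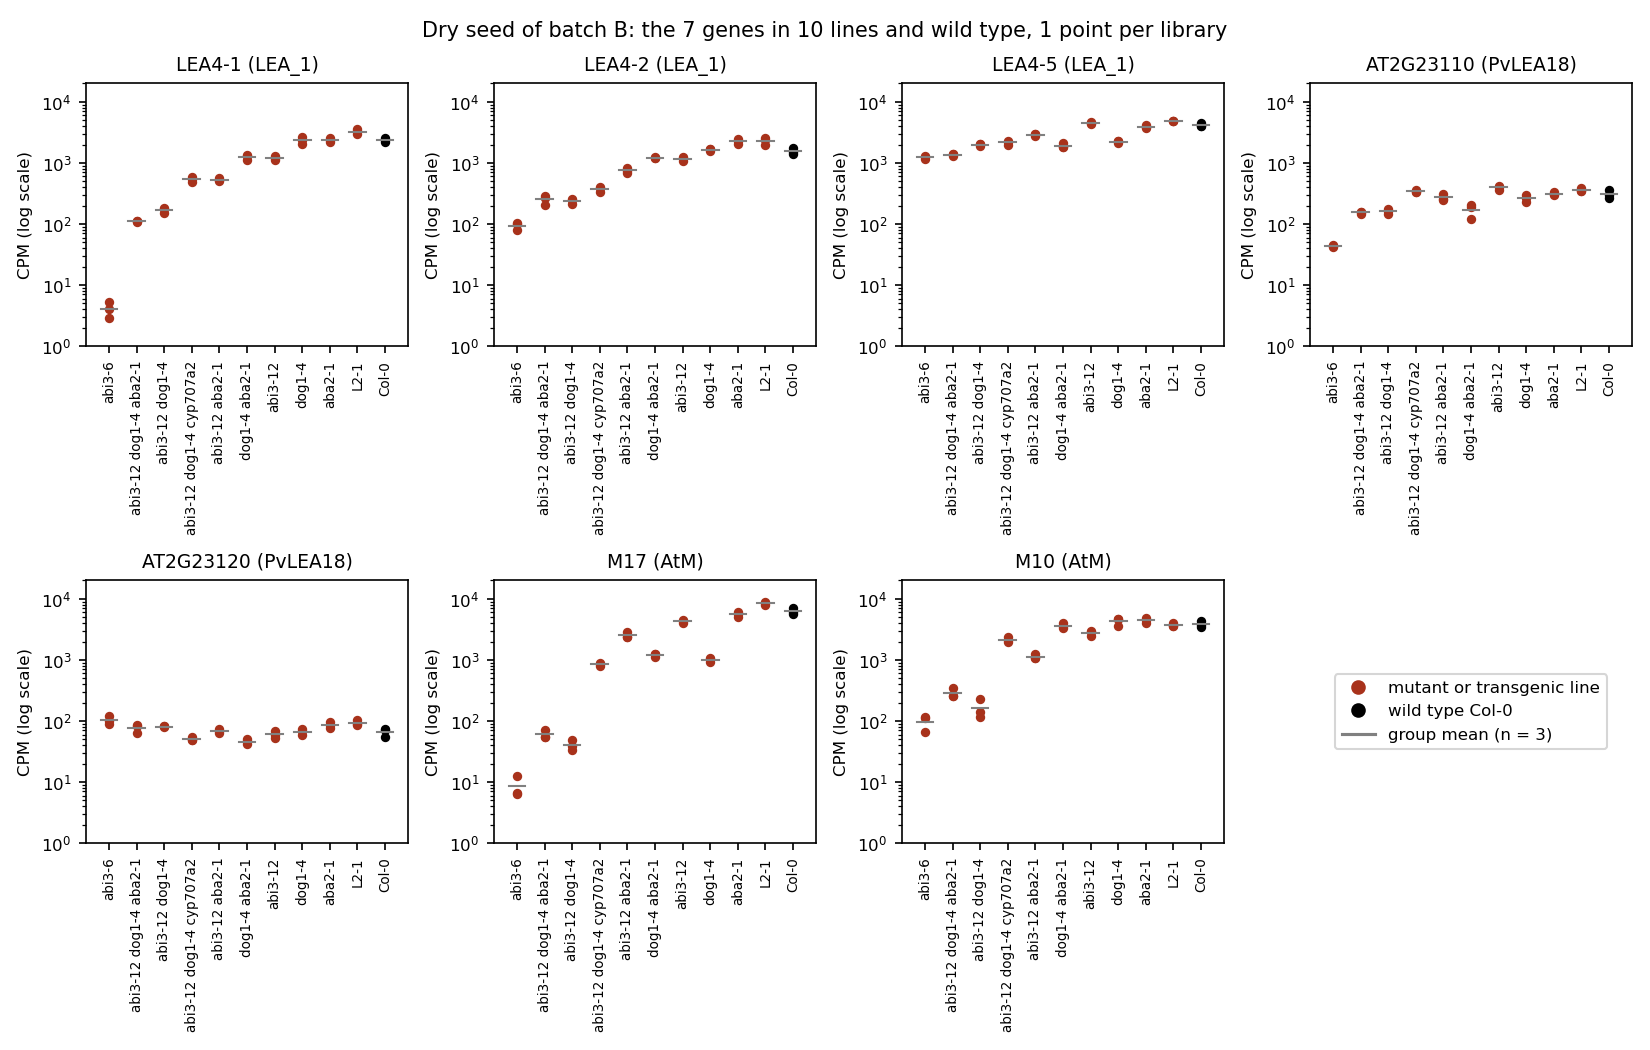
Levels of the 7 genes in dry seed of 10 lines and wild type of batch B, in CPM on a log axis, with 1 point per library and a bar at each group mean. AT2G23120 lies between 41.2 and 121 CPM in all lines, while LEA4-1 and M17 span 2.92 to 3532 and 6.33 to 8847 CPM.

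The order of lines in dry seed was set out for each gene. For M17 the mean was 8522 CPM in L2-1, 6266 in wild type, 5635 in aba2-1, 4265 in abi3-12, 2546 in abi3-12 aba2-1, 1214 in dog1-4 aba2-1, 1007 in dog1-4, 844 in abi3-12 dog1-4 cyp707a2, 60.3 in abi3-12 dog1-4 aba2-1, 40.7 in abi3-12 dog1-4 and 8.52 in abi3-6. Among neighbours in this order, the libraries of wild type and aba2-1 alone overlapped. For M10 the libraries of aba2-1, dog1-4, wild type, L2-1 and dog1-4 aba2-1 overlapped with their neighbours, at means of 4473 to 3635 CPM. Below them followed abi3-12 (2743 CPM), abi3-12 dog1-4 cyp707a2 (2149), abi3-12 aba2-1 (1130), abi3-12 dog1-4 aba2-1 (284), abi3-12 dog1-4 (162) and abi3-6 (97.3), without overlap between neighbours. In dog1-4 and dog1-4 aba2-1 M10 thus stood among wild type, aba2-1 and L2-1, and M17 below abi3-12 and abi3-12 aba2-1.

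Among the LEA_1 genes, LEA4-1 was at 3268 CPM in L2-1, then at 2391, 2363 and 2360 CPM in wild type, dog1-4 and aba2-1, which overlapped, and at 1259 and 1209 CPM in dog1-4 aba2-1 and abi3-12, which overlapped too. The lowest were abi3-12 dog1-4 aba2-1 (111 CPM) and abi3-6 (4.08 CPM). LEA4-2 was highest in L2-1 and aba2-1 (2292 and 2254 CPM, overlapping) and lowest in abi3-12 dog1-4 (239 CPM) and abi3-6 (94.2 CPM). LEA4-5 was at 3789 CPM or more in every library of L2-1, abi3-12, wild type and aba2-1, at 2305 CPM or less in every library with dog1-4, at 2743 to 2970 CPM in abi3-12 aba2-1 and lowest in abi3-6 (1159 to 1298 CPM). AT2G23110 was highest in abi3-12 (399 CPM) and lowest in abi3-6 (43.6 CPM), and all 10 pairs of neighbours of AT2G23120 overlapped, from 104 CPM in abi3-6 to 46.1 CPM in dog1-4 aba2-1.

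Along their own course, 6 members rose and AT2G23120 fell in dry seed over 18 DAP in abi3-12 (70.1% of all genes called) and in abi3-12 dog1-4 cyp707a2 (69.3%). In abi3-12 dog1-4, 4 rose and 2 fell (71.2%): LEA4-1 fell by 0.63 and AT2G23120 by 0.47 (neither called with library totals), and M17 rose by 3.36, where it rose by 9.49 in abi3-12 and 7.31 in abi3-12 dog1-4 cyp707a2. In dog1-4 the course began at 20 DAP, and 2 rose and 3 fell in dry seed (62.4%), with M17 up by 5.25 and LEA4-1 at -0.43 (0.17 with library totals, which also ended the call of AT2G23110 at -0.24). The calls of LEA4-1 in dog1-4 and of M10 in abi3-12 dog1-4 (0.81) were each lost without any 1 of 3 of the 6 libraries, and those of AT2G23120 in abi3-12 dog1-4 and of LEA4-1 (0.50) and AT2G23110 (0.48) in abi3-12 dog1-4 cyp707a2 without 1 of the 6. In abi3-6 of batch A, 3 members rose and 2 fell at 22 over 16 DAP (62.1%). LEA4-2, M10 and LEA4-5 rose by 2.50, 2.14 and 1.81, and LEA4-1, among those that fell, did so by 2.17.

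Green tissue genes were also more abundant in dry seed of the other lines except L2-1. Their sum was 5150 to 6680 CPM in abi3-12 dog1-4 aba2-1, 2820 to 3090 CPM in abi3-12 dog1-4, 720 to 846 CPM in abi3-12 aba2-1, 558 to 683 CPM in dog1-4 aba2-1, 336 to 456 CPM in abi3-12 dog1-4 cyp707a2, 224 to 376 CPM in dog1-4, 106 to 159 CPM in aba2-1 and 82.8 to 109 CPM in abi3-12, against 30.8 to 41.0 CPM in wild type. In aba2-1 no member was called lower. The share of all counts held by the 7 genes was 1.66% ± 0.0691 in dry wild-type seed (SD, n = 3 for each line). Above this were aba2-1 (1.72% ± 0.0517) and L2-1 (2.0% ± 0.0887). Below it were abi3-12 (1.42% ± 0.0602), dog1-4 (1.19% ± 0.056), abi3-12 aba2-1 (1.01% ± 0.0502) and dog1-4 aba2-1 (0.962% ± 0.0563). The lowest were abi3-12 dog1-4 cyp707a2 (0.704% ± 0.0370), abi3-12 dog1-4 (0.393% ± 0.0201), abi3-12 dog1-4 aba2-1 (0.303% ± 0.00485) and abi3-6 (0.207% ± 0.0126). The genes of seed storage and oil bodies summed to 12200 to 15900 CPM in abi3-12 dog1-4 aba2-1 and 22100 to 27500 CPM in abi3-12 aba2-1, against 53800 to 60300 CPM in wild type. They were at 77200 to 93500 CPM in dog1-4 aba2-1 and at 81600 to 90000 CPM in aba2-1 alone. Their sums were 50600 to 62100 CPM in dog1-4, 48100 to 52500 CPM in abi3-12, 50600 to 54600 CPM in L2-1 and 46200 to 51400 CPM in abi3-12 dog1-4 cyp707a2. The part of these markers in the levels of the 7 genes was not tested.

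The genes with the most similar levels were found by correlating group means of log2 CPM over the 31 groups of batch B, among 16527 genes. Groups share libraries of one batch and their scaling, and r is given as a description. Closest to LEA4-1 were AT1G27990 (r = 0.984, and 0.988 over the 12 groups of batch A) and AT1G54870 (0.983 and 0.946). Closest to M10 were AT4G26120 (0.981 and 0.977) and AT2G41945 (0.981 and 0.978), and closest to M17 AT1G78930 (0.976 and 0.879) and AT2G05120 (0.967 and 0.912). LEA4-2 was nearest to AT3G07030 (0.963 and 0.929) and ESP1 (0.962 and 0.946). LEA4-5 was nearest to AHG1 (0.913 and 0.883), a protein phosphatase that acts against ABA responses in seed, and to ABI5 (0.908 and 0.944), the bZIP factor of seed ABA responses. AT2G23110 was nearest to PFK2 (0.923 and 0.908) and UP6 (0.904 and 0.870), and AT2G23120 to AT1G55160 (0.937 and 0.736) and CRK (0.924 and 0.521).

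Between members, r in batch B was highest for LEA4-2 and M10 (0.921, and 0.907 in batch A) and for M17 and M10 (0.887 and 0.892). The neighbouring PvLEA18 genes were at 0.343 and 0.547. AT2G23120 had r of -0.375 to 0.343 with the other 6 members in batch B.

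The 44 other Arabidopsis LEA genes, all of other families except the PvLEA18 gene AT2G33690, were counted for comparison. Of these, 38 passed the filter on low counts. In dry abi3-6 seed 15 were higher and 22 lower than in wild type, where 77.7% of all tested genes were called, 43.2% higher and 34.5% lower. Both LEA_5 genes and all 5 tested SMP genes were lower, such as GEA6 (9.81 ± 2.58 CPM in abi3-6, against 9372 ± 1047 CPM in wild type; -9.89) and ATECP31 (2.13 ± 0.808 CPM, against 4269 ± 163 CPM; -10.92). Both tested LEA_3 genes were higher, and of the LEA_2 genes 2 were higher and 1 lower. The LEA_4 genes were split, with 6 higher and 10 lower, as were the dehydrins, with 5 higher and 4 lower. COR47, a dehydrin known from cold responses of leaves, was at 143 ± 19.1 CPM in abi3-6, against 0.0610 ± 0.106 CPM in wild type. In dry abi3-12 dog1-4 seed 13 were higher and 22 lower (73.9% of all genes were called). In dry dog1-4 seed 9 were higher and 12 lower (30.6%). In wild type, dry seed over 18 DAP, 10 were higher and 15 lower in batch A (63.8%), and 19 were higher and 9 lower in batch B (66.6%).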

How the data were processed

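The authors deposited raw counts per gene for 123 seed libraries, and these counts were used as deposited. Per the labels, poly(A) RNA was made into strand-specific libraries with random hexamers. The submitters' processing notes list HISAT2 2.1.0, StringTie 1.3.2, Cufflinks, SAMtools and the build TAIR10. The counting tool, its strand setting and the annotation are not given in the sources used here. Every column of the table matched 1 sample.

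Groups came from genotype, stage and batch in the labels. Batches A (31 libraries) and B (92) were fitted separately in edgeR 4.0.16 (R 4.3.3) with 1 coefficient per group, TMM scaling and filterByExpr with a minimum count of 10, which left 20414 and 20912 genes. All 7 members passed. Quasi-likelihood F tests were adjusted by the Benjamini-Hochberg method over all tested genes, and a gene was called at an adjusted p under 0.05. The SE of a log2 fold change is its size divided by the square root of F. CPM use TMM-scaled library sizes, and log2 CPM a prior count of 2. Levels per kilobase use the longest annotated transcript. The fit was run on simulated dry-seed counts of batch B in which few genes were changed, in a single group. That simulation did not cover comparisons in which most genes were called.

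Alternatives were DESeq2 1.42.0, RLE factors, library totals, no expression filter, only the groups compared, a replicate block, and each library left out in turn. The last pair of alternatives kept the genes and trended dispersion of the full fit and estimated the quasi-dispersion again. Where that left 1 library in a group, it was taken to vary like the other groups.

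The members and the gene lists were chosen with earlier results of these data known. All 7 members are named, with the 2 genes of the highest correlation to each and at most 2 genes per other LEA family with the largest called changes. Precision is limited by counting error at low levels and by 2 or 3 libraries per group.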

Additional observations from a re-analysis of the deposited data

Results flagged for a closer look

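The difference from wild type changed with stage, by edgeR's quasi-likelihood F test over all stages, for 7 of 7 members in abi3-6 of batch A, 2 in abi3-12, 7 in abi3-12 dog1-4 and 5 for abi3-12 dog1-4 cyp707a2. The shares of all tested genes that did so were 75.1%, 23.0%, 65.4% and 32.8%.

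In 3 cases the changes called at different stages had opposite directions. AT2G23120 in abi3-6 was at a log2 difference from wild type of 1.17 at 16 DAP, -0.72 at 18 DAP, -2.03 at 20 DAP and 0.65 when dry. The call at 18 DAP was lost without either abi3-6 library. AT2G23120 in abi3-12 was at -0.51 at 20 DAP, against 0.90 at 18 DAP. The call at 20 DAP was lost without any 1 of 3 libraries (-0.42 to -0.38) and with library totals (-0.04). AT2G23110 in abi3-12 dog1-4 was at 0.82 at 18 DAP, -0.40 at 20 DAP, -1.92 at 22 DAP and -0.91 when dry. The value at 20 DAP turned to 0.62 with library totals, and the call in dry seed was lost with them (-0.28).

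In dry seed the effect of 1 mutation depended on another for 5 members with abi3-12 and dog1-4, 3 members with abi3-12 and aba2-1 and 1 member with dog1-4 and aba2-1, and the 3-way term was called for 4 members. The dog1-4 by aba2-1 call (LEA4-1) was lost in 11 of 12 cases with a library left out and without the expression filter. The call of M10 for abi3-12 and aba2-1 was lost in 7 of 12 such cases and with library totals (-1.20). The tests were interaction terms over all genes, which called 37.3%, 14.2%, 1.01% and 14.8% of all tested genes.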

How the results depend on the processing

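Of 448 member fold changes, none gained or lost a call with the replicate block, for example 7 members called in abi3-6 at 20 DAP. No called value changed direction with it. Directions of values without a call were not followed for each setting. Over all settings and left-out libraries, 109 such values changed sign and stayed without a call. Deviations of same-numbered libraries had correlations of -0.092 to 0.084 in batch A (median 0.021). In batch B they were -0.307 to 0.343 (median 0.018), with 9.82% of pairs above 0.1. Correlations of differently numbered libraries were not computed, so this check cannot decide whether replicate numbers pair the samples. The block is given here only. Of 296 called values, 236 were kept in every setting and left-out library, 41 were lost without at least 1 library, 46 with library totals and 24 in another setting.

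Library totals moved the median of all genes by -0.42 to 1.26 (over 0.1 in 57 of 64 comparisons). Every reversed direction of a value called in either fit arose there, and the cause was not tested. LEA4-1 came to 0.17 in dog1-4 dry seed over 20 DAP and 0.42 in wild type at 22 over 20 DAP of batch B. AT2G23110 came to 0.62 and 0.12 in abi3-12 dog1-4 against wild type at 20 and 24 DAP, 0.77 and 0.32 in abi3-12 dog1-4 cyp707a2 at 20 and 22 DAP, and 0.48 in wild type at 22 over 20 DAP of batch B. AT2G23120 came to 0.04 and 0.035 in abi3-12 dog1-4 against abi3-12 at 20 and 22 DAP, 0.42 in abi3-12 dog1-4 against wild type at 24 DAP, 0.023 in abi3-12 dog1-4 cyp707a2 at 20 DAP, 0.55 in abi3-6 at 18 DAP and 0.03 in wild type dry seed over 18 DAP of batch B. M10 came to 0.81 in abi3-6 at 16 DAP and LEA4-5 to 0.17 in abi3-12 dog1-4 cyp707a2 at 18 DAP.

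Counts of called members moved as follows. DESeq2 gave 1 for aba2-1 (0), 2 for abi3-12 dry seed (1), 2 for abi3-12 dog1-4 cyp707a2 against abi3-12 dog1-4 at 20 DAP (1) and 3 for dog1-4 by aba2-1 (1), with the edgeR count in parentheses here and below. Library totals gave 1 for aba2-1 (0), 2 for abi3-12 at 20 DAP (5) and 2 in dry seed (1), 0 for the triple against the double mutant at 20 DAP (1) and 5 for wild type at 22 over 20 DAP of batch B (2). Without an expression filter the triple against the double mutant at 20 DAP and dog1-4 by aba2-1 gave 0 (1 each). Fitting the groups compared alone gave 2 for aba2-1 (0), 4 for L2-1 (0), 5 for abi3-12 at 24 DAP (3) and 5 in dry seed (1), 6 for abi3-12 by aba2-1 (3), 3 for dog1-4 by aba2-1 (1), 0 and 2 for the triple against the double mutant at 18 and 20 DAP (3 and 1), and 6 for wild type at 22 over 20 DAP of batch A (2). With 1 library left out the counts ranged from 2 to 6 for abi3-12 at 18 DAP, 2 to 5 at 20 and 22 DAP and 1 to 2 in dry seed, 0 to 1 for the triple against the double mutant at 20 DAP, 3 to 5 for the triple mutant at 18 DAP, 0 to 1 for dog1-4 by aba2-1 and 3 to 4 for wild type at 20 over 18 DAP of batch A. RLE factors moved no count by over 1.5 times.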
